A study of Mus musculus with 4 samples.

Results

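Mouse embryonic stem cells of the hybrid line JB1 without ZFP57 were compared with wild-type JB1 cells across all genes that reached 1 RPM (reads per 1000000 reads of a library) in either library. Of 26130 genes listed, 13132 met this rule. Both libraries came from the JF1/B6 line, whose genotypes are labelled wild type and Zfp57-/-, and there was 1 library of each genotype. The wild-type and Zfp57-/- libraries of a second line, E14 of strain 129P2/OlaHsd, are set beside the JB1 values where stated. The cells of both lines grew on gelatin, without feeder cells, in serum with leukemia inhibitory factor, and mRNA libraries were made with a stranded kit. How the knockout lines were made, and whether each is 1 clone, is not given in the sources used here. Because no group had a second library, no difference below carries a test, and every comparison is between 2 libraries and not between 2 conditions with known spread.

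ZFP57 is a KRAB zinc finger protein. It binds the methylated copy of imprinting control regions and brings in KAP1 (Trim28), which recruits enzymes that keep DNA methylation and silent histone marks on that copy. Embryonic stem cells in serum divide quickly, make their own lipids and nucleotides, and hold developmental regulators in check by Polycomb complexes. The account below is mostly of genes outside the imprinted domains, glycolysis and the early response.

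A gene was called when its log2((knockout RPM + 1)/(wild-type RPM + 1)) was at least 1 in size, which is 2-fold on that scale. "Log2 difference" below means this quantity, which understates the change of genes near 1 RPM. A value given as fold is the plain ratio of RPM, and the range in brackets after it is its exact 95% interval from the recovered reads. Such an interval holds counting error alone and no spread between cultures, and reads are not independent molecules. Higher and lower always mean in the knockout library against the wild-type library. RPM are not corrected for transcript length, so levels are compared for a gene between libraries and not between genes.

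The library totals were 69204114 reads in the wild type and 96996280 in the knockout, so 1 RPM stood for 69.2 and 97.0 reads. Zfp57 itself (chromosome 17, 37138108 to 37147580, plus strand; all gene coordinates are those of the tables, in mm9) was at 796 RPM in wild-type and 42.9 RPM in knockout cells, 18.5-fold lower (18.0 to 19.1). This direction is that of the genotype labels, which do not give the deleted stretch. All 19 pluripotency markers listed in the table were above 1 RPM, and their summed level was 6763 RPM in wild-type and 5739 RPM in knockout cells. Pou5f1 was at 925 and 939.9 RPM. 14 of the 19 markers were lower by any amount, with a median log2 difference of -0.24. Klf4 and Fgf4 were called lower, at -1.31 and -1.11 (10.5% of the markers, against 1.58% of all genes tested). Utf1 was called higher, at 1.45 (5.26%, against 2.5% of all genes tested).

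The differences were narrow and nearly centred on 0. Their median was 0.01, 77.5% of the genes lay within 0.5, and the 5th and 95th percentiles were -0.65 and 0.77. 328 genes were called higher (2.5% of those tested) and 208 were called lower (1.58%). By any amount, 6766 genes were higher (51.5%) and 6366 were lower (48.5%). 23 genes passed 4-fold upwards and 17 downwards. The plot of all genes shows the called genes at every level, with Zfp57 far from the diagonal.

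**Figure D1:**
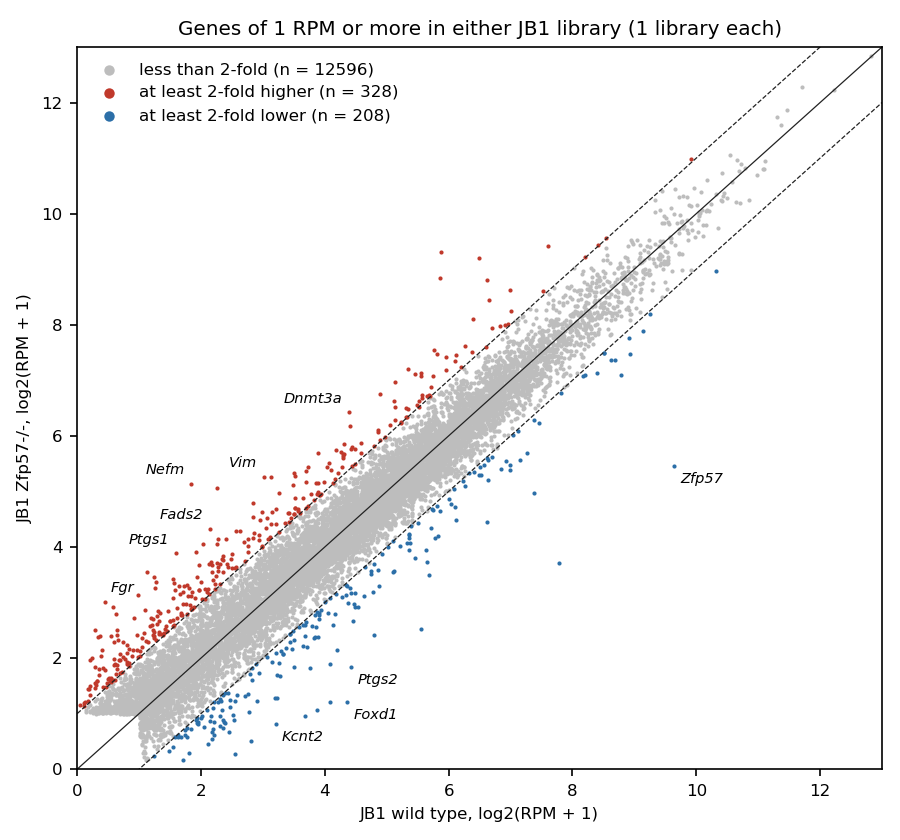
Levels of the 13132 genes in the JB1 wild-type library (x axis) and the Zfp57-/- library (y axis), both as log2(RPM + 1), 1 point a gene. The solid line marks equality and the dashed lines 2-fold; 328 genes lie above the upper dashed line and 208 below the lower one, with Zfp57 at 796 and 42.9 RPM.

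The rule kept 12334 genes that reached 1 RPM in both libraries, 530 that did so only in the knockout and 268 that did so only in the wild type. Genes of the last 2 kinds had to differ in that direction, and they gave 72 of the higher and 43 of the lower calls. Just inside the rule stood Foxj1, H2-Q2 and Fam131b, each with 97 reads in the knockout, and just outside stood Gm12953, D830030K20Rik and Rerg, each with 69 reads in the wild type. Just past the 2-fold line were Pdyn and Gm3906, which were higher, and Scn8a and Atp8a1, which were lower. Pdyn, which encodes an opioid precursor, was at 0.520 and 2.04 RPM, and Atp8a1, a phospholipid flippase, at 33.3 and 16.2 RPM. The nearest genes not called were Frem2 and Fbln1 among the higher ones and Mme and Muc1 among the lower ones, with Mme at 109 and 54.0 RPM. Genes on either side of the line thus barely differed.

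By the higher of a gene's 2 levels, 90 of 2853 genes between 1 and 5 RPM were called higher, 109 of 3692 between 5 and 20, 88 of 4874 between 20 and 100, and 41 of 1713 above 100. The counts called lower were 54, 66, 60 and 28, so calls were not limited to weakly expressed genes. Several genes named below share their position with another listed gene, and since the strand setting of the counting is not known, reads of such partners cannot be told apart. Beside the pairs pointed out below, they include Prps2 with Gm15239, Paics with Ppat, Lamp1 with Grtp1, Igfbp7 with Polr2b, Ryr3 with Aven, Slc16a3 with Csnk1d, Ctnnb1 with Ulk4, Slit3 with Gm12122, Cntnap2 with Rbpsuh-rs3, Dnmt3a with Gm10485, B4galnt2 with Gm11534, Camk2d with Gm15551, Adam19 with Gm16033 and Gm16034, Pdgfc with Gm16000, Esrp1 with Gm16652, Ccdc3 with Gm16934, Rgs3 with Gm11209, Bmp4 with Gm15217 and Gm15222, Meg3 with Gm17639, Egr1 with Gm17507, Bhlhe40 with 0610040F04Rik, Slc2a1 with Gm12867 and Gm12868, and Gstt3 with a transcript named after a clone.

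The differences varied with transcript length and base composition. With the genes in 5 equal groups from the shortest to the longest transcripts, the median log2 difference was 0.12, 0.07, 0.03, -0.05 and -0.11. From the lowest to the highest group of GC content it was -0.10, -0.03, 0.03, 0.09 and 0.10. Short and GC-rich transcripts thus stood slightly higher in the knockout library. The E14 libraries, a separate pair, gave 0.13 in the shortest and -0.05 in the longest group of the same genes. The centred median of a group, where it is given below, is its median after centring on genes of like length and GC content. What part length and GC content have in any one difference was not tested.

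**Figure D2:**
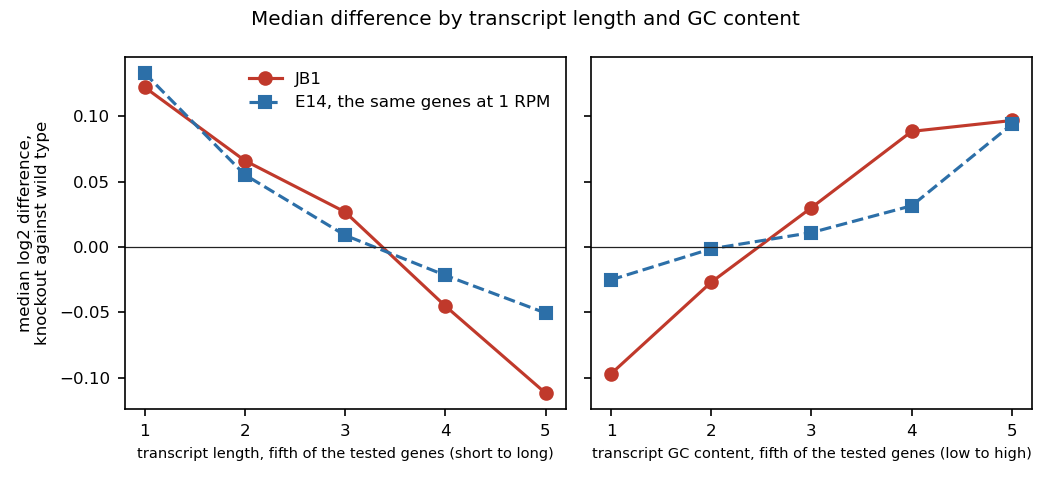
Median log2 difference (y axis) of genes split into 5 equal groups by transcript length (left) and by transcript GC content (right), in JB1 (circles) and, for the same genes at 1 RPM or more, in E14 (squares). In JB1 the medians run from 0.12 to -0.11 with length and from -0.10 to 0.10 with GC content.

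The far end of chromosome 1 stood lower than the rest. Beyond 140 Mb, a boundary chosen with earlier results known, 193 of 246 genes were lower, 20 of them called, with a median log2 difference of -0.32. The 495 genes before that point had a median of 0.00. Members that lie in this stretch are marked below as lying on distal chromosome 1.

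ZFP57 is known to bind the letters TGCCGC when the CpG inside them is methylated, so the promoters of the called genes were searched for them, on either strand, in RefSeq windows of GRCm38.p6 from 250 bases before to 50 after a transcription start. The files use mm9, so windows were matched by gene symbol and not by position. Of the genes tested, 10220 had a window and 22.5% of these held the letters. The share was 20.2% of 247 genes called higher and 21.5% of 158 called lower, both near the share of all. 4 of 15 sterol synthesis genes held them, Dhcr7 among them. The 250 bases before the start of 3 genes called higher are shown as examples, 5′ to 3′ on the gene's strand, with the letters in capitals. The windows lie at chr4:132973845-132974094 for Fgr, chr2:5137526-5137775 for Ccdc3 and chr7:143829964-143830213 for Dhcr7, all on the plus strand.
Fgr: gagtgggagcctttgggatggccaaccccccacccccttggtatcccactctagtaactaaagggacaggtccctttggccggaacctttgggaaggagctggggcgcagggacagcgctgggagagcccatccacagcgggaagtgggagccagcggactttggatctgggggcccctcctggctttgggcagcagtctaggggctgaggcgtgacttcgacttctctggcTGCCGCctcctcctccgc
Ccdc3: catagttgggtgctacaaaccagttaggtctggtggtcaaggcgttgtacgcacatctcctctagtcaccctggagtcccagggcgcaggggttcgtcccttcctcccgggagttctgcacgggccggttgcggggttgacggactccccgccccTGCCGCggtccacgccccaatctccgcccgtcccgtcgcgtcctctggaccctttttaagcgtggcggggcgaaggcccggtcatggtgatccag
Dhcr7: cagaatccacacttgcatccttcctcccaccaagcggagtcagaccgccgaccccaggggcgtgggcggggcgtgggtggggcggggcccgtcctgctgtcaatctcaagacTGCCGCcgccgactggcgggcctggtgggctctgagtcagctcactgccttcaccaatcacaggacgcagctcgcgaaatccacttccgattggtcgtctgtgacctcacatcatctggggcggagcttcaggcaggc

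The largest differences fell on genes of many kinds. Among the 25 highest were the imprinted transcripts Rian, Meg3, Mirg and Peg10 and the glycolysis gene Ldha, and among the 25 lowest the imprinted Grb10 and the early response genes Fos, Egr1 and Fosb. The remaining genes of both ends are described here by what they encode.

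The 25 highest also held Nefm, Vim, Itga1, Cntnap2, Robo4 and Adamts14. Nefm, the medium neurofilament subunit (chromosome 14, 68700647 to 68742903, minus strand), was at 2.56 RPM in wild-type cells against 34.2 RPM in Zfp57-/- cells, 13.4-fold higher (11.5 to 15.6). It overlaps Nefl, the light subunit, in the table, which was at 10.4 and 39.3 RPM, and reads could be shared between them. Vim, the vimentin of mesenchymal and many cultured cells, was at 7.05 and 37.4 RPM, 5.31-fold higher (4.83 to 5.85). Itga1, the alpha subunit of a collagen-binding integrin, was at 0.260 and 4.18 RPM, but it overlaps Pelo. Cntnap2, a neurexin-related protein of axons, was 8.02-fold higher, and Robo4, an endothelial relative of the Slit receptors, 6.69-fold higher. Adamts14, which trims procollagen, was at 1.39 RPM in wild-type and 8.64 RPM in knockout cells, 6.23-fold higher (5.04 to 7.78).

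Fgr and Clec4a1 were among the 25 highest as well. Fgr, a Src-family kinase of myeloid cells (chromosome 4, 132530010 to 132557825, plus strand), was at 0.361 RPM with ZFP57 and 7.08 RPM without it, 19.6-fold higher (13.2 to 30.5). Clec4a1, a C-type lectin of myeloid cells, was at 0.491 and 6.55 RPM. Of the list of myeloid markers, 8 reached 1 RPM. Of 20 myeloid markers in the table, 4 had no read in either library, Tyrobp, Lyz2, Aif1 and Emr1, and Ptprc was at 0.0289 RPM in the wild type and at 0 reads in the knockout. The summed level of the list was 198 RPM in wild-type and 115 RPM in knockout cells. Laptm5, a lysosomal membrane protein of blood cells, was called lower, at 138 and 67.3 RPM.

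Several enzymes were also among the 25 highest. Ptgs1, the constitutive cyclooxygenase, and Fads2, the delta-6 desaturase of polyunsaturated fatty acids, are described below with their pathways. Pipox, a peroxisomal oxidase of sarcosine and pipecolic acid, was at 1.37 RPM in wild-type cells against 9.95 RPM in Zfp57-/- cells, 7.25-fold higher (5.87 to 9.04). Enpp3, an ectoenzyme that splits extracellular nucleotides, was 5.00-fold higher, and Nxn, the thioredoxin relative nucleoredoxin, 4.33-fold higher. A2m, a broad protease inhibitor, was at 2.79 and 14.03 RPM. Dnmt3a, a de novo DNA methyltransferase, was at 19.9 and 84.9 RPM, 4.27-fold higher (4.03 to 4.52). Iqca and Ccdc3 and the RIKEN transcripts 1110002J07Rik, 4930583H14Rik and D630042P16Rik complete the 25, with log2 differences between 2.04 and 2.42.

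Foxd1, P2rx3, Kcnt2, Hhip and Gli1 were among the 25 lowest. Foxd1, a forkhead factor of kidney stroma and retina (chromosome 13, 99124200 to 99126660, plus strand), was at 19.6 RPM in wild-type and 1.32 RPM in knockout cells, 14.8-fold lower (12.4 to 17.9). In E14 it was below 1 RPM in both libraries. P2rx3, an ATP-gated channel of sensory neurons, was at 16.0 and 1.30 RPM, 12.3-fold lower (10.2 to 14.9), and overlaps Ssrp1. Kcnt2, a sodium-activated potassium channel on distal chromosome 1, was at 8.21 and 0.753 RPM. Hhip, a cell-surface trap for Hedgehog ligands, was at 13.6 RPM with ZFP57 and 1.10 RPM without it, 12.3-fold lower (10.1 to 15.2). Gli1, a transcription factor and target of the same pathway that overlaps Arhgap9, was at 97.0 and 20.8 RPM.

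The 25 lowest also held Tdrd9, Sycp2, Taf7l, H2-M5, Galnt3, B4galnt2 and Fbln5. Tdrd9, a helicase of the piRNA pathway that overlaps BC048943, was at 16.0 RPM in wild-type cells against 2.70 RPM in Zfp57-/- cells. Sycp2, a protein of the synaptonemal complex of meiosis, was 3.91-fold lower, and Taf7l, a TFIID subunit of male germ cells, 5.08-fold lower. H2-M5, a class I histocompatibility gene close to Zfp57 on chromosome 17, was at 50.3 and 10.2 RPM. Galnt3, which starts mucin-type O-glycans, was 5.66-fold lower, and B4galnt2, which adds a terminal sugar to glycans, 7.62-fold lower. Fbln5, an elastic fibre protein, was at 8.37 RPM in wild-type and 1.42 RPM in knockout cells, 5.88-fold lower (4.88 to 7.13). Btn1a1, Cntnap3, Napsa, which overlaps Gm15396, and Sft2d2, on distal chromosome 1, had log2 differences between -2.37 and -1.70.

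Sterol synthesis was the list with the highest median of those with at least 12 members tested. Cholesterol is made from acetyl-CoA through mevalonate, squalene and lanosterol, and the genes of these steps are known targets of the transcription factor SREBP2. 21 of the 22 tested genes were higher by any amount and 7 were called higher (31.8%, against 2.5% of all genes tested), with none called lower. Their median log2 difference was 0.74, against 0.01 over all genes, and the centred median was 0.67. In E14 the median of the same genes was 0.05.

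Among the enzymes of the early steps, Pmvk, which phosphorylates phosphomevalonate, was at 28.0 and 65.7 RPM, 2.35-fold higher (2.23 to 2.47). Fdps, which makes farnesyl diphosphate, was at 20.8 and 54.7 RPM, 2.63-fold higher (2.48 to 2.79). Fdft1, which joins farnesyl units to squalene, was also called, at 23.03 and 50.7 RPM. The last step was called too. Dhcr7, which makes cholesterol from 7-dehydrocholesterol and whose promoter is printed above, was at 7.36 RPM in wild-type cells against 22.1 RPM in Zfp57-/- cells, 3.002-fold higher (2.72 to 3.31).

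The regulators of the pathway were also higher. Insig1, which holds SREBP in the endoplasmic reticulum when sterols are plentiful, was at 18.8 RPM in wild-type and 50.2 RPM in knockout cells, 2.67-fold higher (2.51 to 2.84). Srebf2, which encodes SREBP2, was at 70.1 and 116 RPM and was not called. Hsd17b7, an enzyme of the later steps on distal chromosome 1, was the 1 member that was lower, at -0.39. Fdft1 and Hsd17b7 were singled out after their values were seen.

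**Figure D3:**
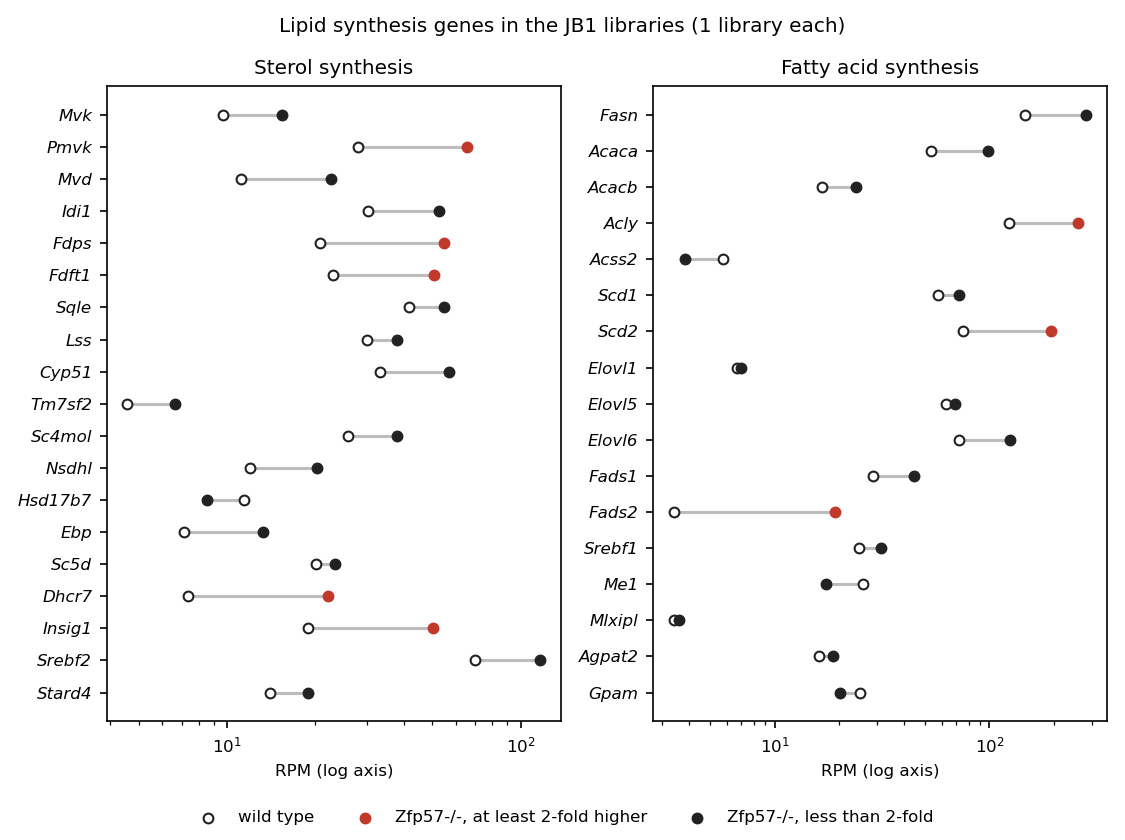
RPM (log x axis) of tested genes of the sterol synthesis list (left, not all members drawn) and of the fatty acid synthesis list (right) in the JB1 wild-type library (open circles) and the Zfp57-/- library (filled circles, red where called higher). Of the sterol genes drawn, all but Hsd17b7 lie to the right in the knockout, as do 14 of 17 fatty acid genes, with 3 of the latter called.

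Fatty acid synthesis stood in the same direction. 14 of 17 genes were higher and 3 were called (17.6%, against 2.5% of all), with a median log2 difference of 0.32, a centred median of 0.40 and an E14 median of 0.07. Fads2 (chromosome 19, 10138654 to 10175993, minus strand) was at 3.41 RPM with ZFP57 and 19.1 RPM without it, 5.61-fold higher (4.90 to 6.45). Scd2, a stearoyl-CoA desaturase, was at 75.5 and 194 RPM, 2.57-fold higher (2.495 to 2.65). Acly, which makes cytosolic acetyl-CoA from citrate, was at 123 and 259 RPM. Fasn, fatty acid synthase, was at 146 and 283 RPM and was not called, with a log2 difference of 0.95. Of the 16 genes of fatty acid oxidation, 11 were higher and Acaa2, the last enzyme of the mitochondrial cycle, was called, at 4.06 RPM in wild-type cells against 12.7 RPM in Zfp57-/- cells. Lipid transport and storage genes had a median of 0.06, with Lipg, an endothelial lipase, and Fabp5, a fatty acid carrier, called higher.

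Genes that make purines and pyrimidines stood mostly higher. 23 of 25 genes were higher and 2 were called (8%, against 2.5% of all), and the median log2 difference was 0.49, with a centred median of 0.42 and an E14 median of 0.12. Prps2, which makes the ribose phosphate donor PRPP, was at 13.7 RPM in wild-type and 30.8 RPM in knockout cells, 2.24-fold higher (2.09 to 2.42). Tk1, the thymidine kinase of dividing cells, was at 14.1 and 29.5 RPM, but it overlaps Afmid. Paics, a bifunctional enzyme of purine synthesis and the gene of the list with the most reads in the wild type, was at 444 and 524 RPM. Genes of DNA replication, by contrast, had a median of 0.04, with 16 of 30 higher, none called, and extremes of -0.27 and 0.48. Homologous recombination and Fanconi anaemia genes lay between -0.25 and 0.41. 19 of 23 mitosis genes were higher, and none was called around a median of 0.22 and a centred median of 0.30.

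Of 78 oxidative phosphorylation subunits, 63 were higher, against 51.5% of all genes, and the median log2 difference was 0.24, with extremes of -0.92 and 0.91. After centring, 25 of them were lower. Of 76 mitochondrial ribosomal proteins, 68 were higher, with a median of 0.27. Of 21 genes of the citric acid cycle and pyruvate dehydrogenase, 18 were higher, with a median of 0.24 and extremes of -0.58 and 0.74. Of 47 proteasome subunits, 44 were higher, with a median of 0.32. None of these lists had a called member. The transcripts of the oxidative phosphorylation subunits are short, with a median length of 1088 bases against 3390.5 over all genes. The centred medians were lower, at 0.16 for oxidative phosphorylation, 0.21 for mitochondrial ribosomes, 0.21 for the citric acid cycle and 0.23 for the proteasome. The E14 medians of the same lists were 0.20, 0.15, 0.01 and 0.23.

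Chaperonin and prefoldin genes, whose products fold actin, tubulin and mitochondrial proteins, had a larger median of 0.49, with 13 of 15 higher and a centred median of 0.46. Hspd1, the mitochondrial chaperonin, was at 694 RPM with ZFP57 and 1358 RPM without it, 1.96-fold higher (1.93 to 1.98), but it overlaps its partner Hspe1. Tubulin genes and the list of actin, myosin and contractile genes stood on the same side. Of 21 tubulin genes, 16 were higher, with a median of 0.36 and a centred median of 0.29. Of 26 actin, myosin and contractile genes, 23 were higher and 3 were called higher (11.5%, against 2.5% of all). Their median was 0.50, with a centred median of 0.45 and an E14 median of 0.18. Cnn2, the actin-binding calponin 2, was at 3.83 and 11.4 RPM, 2.98-fold higher (2.60 to 3.42). Actg1, cytoplasmic gamma actin, was at 371 and 752 RPM, and Actb, beta actin, at 645 and 1210.3 RPM. These 2 actins are near-identical copies in the coding part, so their reads could be split between them.

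Parts of the translation machinery lay elsewhere. Cytosolic ribosomal proteins had a median of -0.10, with 52 of 84 lower. After centring the median was -0.19, with 61 of 83 lower. Their 1 called member was the paralog Rpl39l, at 18.5 RPM in wild-type cells against 47.7 RPM in Zfp57-/- cells. Aminoacyl-tRNA synthetases, which charge tRNAs, were lower in 16 of 21 cases, with a median of -0.22, a centred median of -0.29 and an E14 median of 0.01, and none was called. Eprs, on distal chromosome 1 and the one with the most reads in the wild type, was at 867 and 507 RPM. Initiation factors had a median of 0.11.

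**Figure D4:**
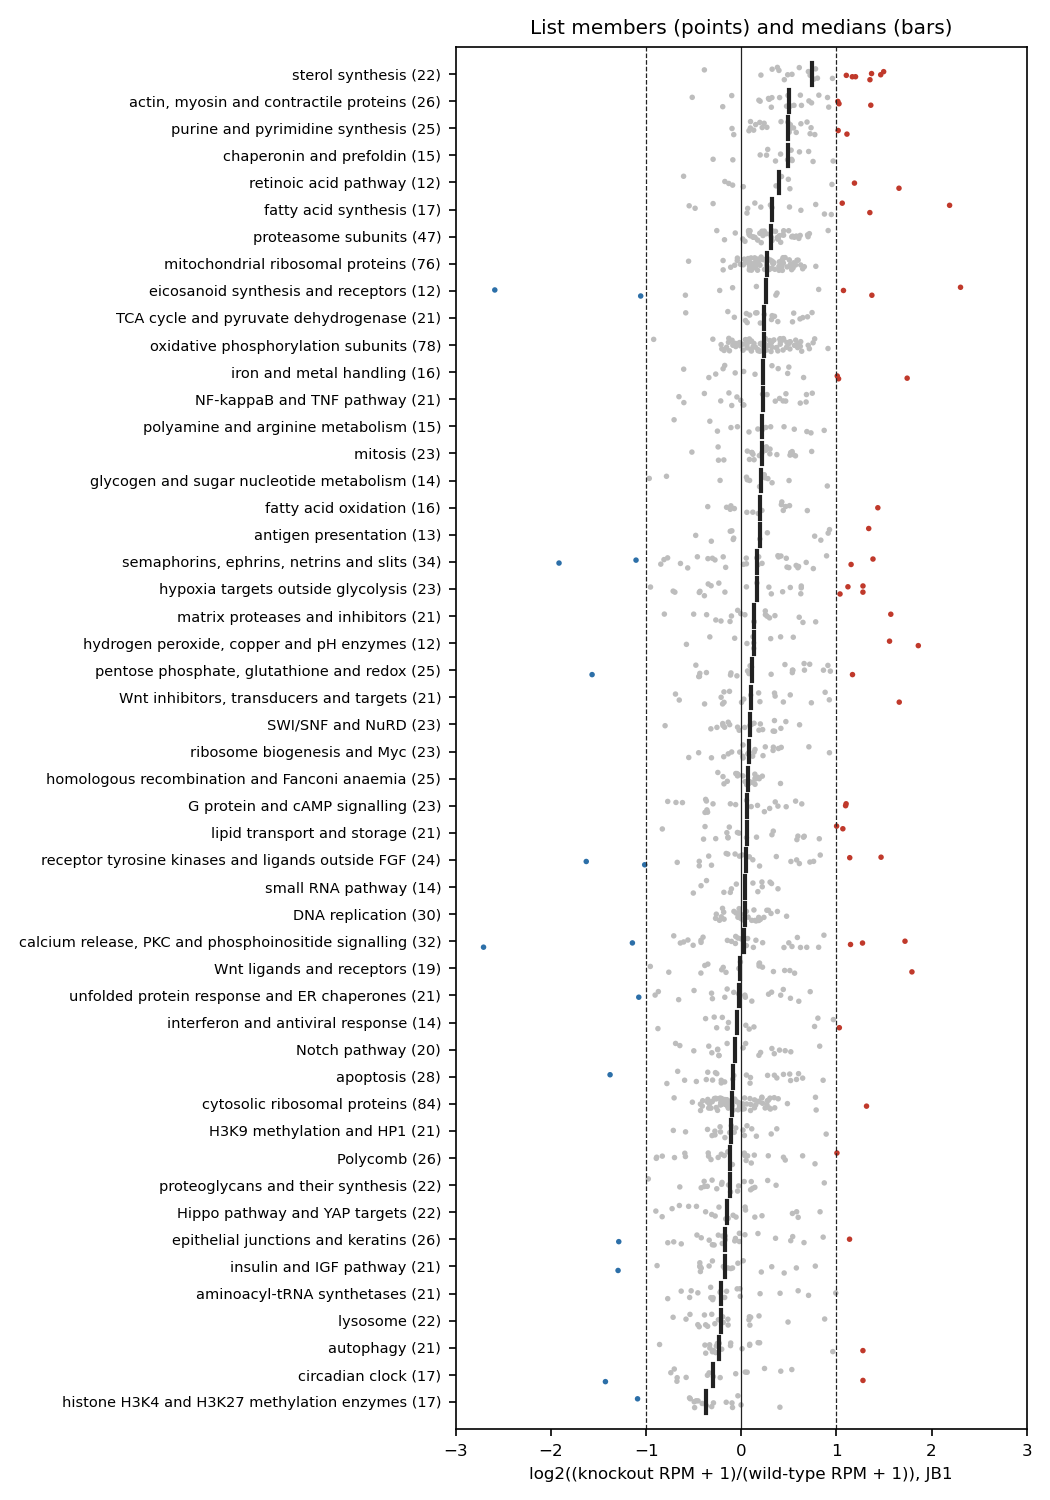
Log2 difference (x axis) of every tested member (points, red where called higher and blue where called lower), with the median as a bar. Drawn are 4 gene classes and the gene lists with at least 12 tested members, without the cell type marker lists. The number of members is in brackets. Lists run from sterol synthesis at the top, median 0.74, to the histone H3K4 and H3K27 methylation enzymes at the bottom, median -0.37.

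At the other end of the lists were enzymes that write and erase methylation of histone H3 at lysines 4 and 27. 16 of 17 were lower, with a median log2 difference of -0.37, a centred median of -0.30 and an E14 median of -0.12. Most of the transcripts are long, with a median of 6468 bases. Rbbp5, a core subunit of the H3K4 methyltransferases (chromosome 1, 134373944 to 134402242, plus strand), lies on chromosome 1 short of its distal stretch and was the 1 called member, at 287 RPM in wild-type and 134 RPM in knockout cells, 2.14-fold lower (2.09 to 2.18). Kdm5b, an H3K4 demethylase, was at 543 and 385 RPM.

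Polycomb genes were spread to both sides, with 14 of 26 lower, a median of -0.12 and extremes of -0.89 and 1.01. Kdm2b, which brings a Polycomb complex to CpG islands, was called higher, at 96.1 RPM with ZFP57 and 194 RPM without it, 2.02-fold higher (1.96 to 2.08), and overlaps Orai1. Hox genes, classic Polycomb targets, reached 1 RPM in 8 of 41 cases, and those 8 were all lower, against 48.5% of all genes tested. Their median was -0.57 and the centred median -0.67, and 1 was called lower (12.5%, against 1.58% of all). Together they summed to only 23.8 RPM in wild-type and 12.3 RPM in knockout cells. Members that reached 1 RPM only in the wild type had to be lower. In E14, 3 of the 5 that reached 1 RPM were higher, and the median was 0.06. Hoxd13, of the limbs and hind body, reached 1 RPM only in the wild type and was called, at 3.58 RPM in wild-type cells against 0.650 RPM in Zfp57-/- cells, 5.52-fold lower (4.17 to 7.40). Klf genes were lower in 12 of 15 cases, with a median of -0.30 and a centred median of -0.30. Of 28 Fox genes, 17 were lower, with a median of -0.18 and a centred median of -0.20. Foxd1 was the 1 called lower (3.57%, against 1.58% of all), and 2 were called higher (7.14%, against 2.5% of all). Foxo4, a target of insulin signalling, was called higher at 28.0 and 68.2 RPM. Foxr2, which reached 1 RPM only in the knockout, was called higher at 0.607 and 2.89 RPM. SWI/SNF and NuRD subunits had a median of 0.09 and H3K9 methylation and HP1 genes of -0.10, with no called member in either.

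Genes named Zfp, many of them zinc finger factors of the KRAB kind to which ZFP57 belongs, were lower in 241 of 343 cases. Their median was -0.15, the centred median -0.12 and the E14 median -0.13. Zfp57, Zfp238, Zfp711 and Zfp296 were called lower (1.17%, against 1.58% of all). Zfp532 was called higher (0.292%, against 2.5% of all). Both shares were below those over all genes. Zfp296, a factor of pluripotent cells, was at 52.9 RPM in wild-type and 24.3 RPM in knockout cells, 2.18-fold lower (2.06 to 2.29). Zfp238, also known as Zbtb18 and also on distal chromosome 1, was at 40.6 and 15.8 RPM.

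The genes of prostaglandin and leukotriene synthesis lay on both sides, with 3 called higher and 2 lower among 12 (25% and 16.7%, against 2.5% and 1.58% of all). Phospholipase A2 frees arachidonic acid, the cyclooxygenases Ptgs1 and Ptgs2 turn it into prostaglandin H2, and Ptges makes prostaglandin E2. Pla2g4a, the cytosolic phospholipase on distal chromosome 1, was at 7.38 RPM with ZFP57 and 3.03 RPM without it, 2.44-fold lower (2.11 to 2.82). Ptgs2, the inducible cyclooxygenase next to it (chromosome 1, 151947254 to 151955140, plus strand), was at 20.5 and 2.57 RPM, 7.98-fold lower (6.97 to 9.16). Ptgs1, the constitutive cyclooxygenase (chromosome 2, 36085946 to 36107792, plus strand), was at 2.01 and 13.9 RPM, 6.90-fold higher (5.79 to 8.28). The 2 cyclooxygenases thus differed in opposite directions between the libraries. Ptges was at 10.4 RPM in wild-type cells against 28.5 RPM in Zfp57-/- cells, 2.74-fold higher (2.53 to 2.98). Alox5ap, which serves leukotriene synthesis, was at 0.390 and 1.93 RPM. It reached 1 RPM only in the knockout, so it had to be higher.

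Calcium and phosphoinositide signalling had called genes on both sides around a median of 0.03. Of 32 genes, 3 were called higher and 2 lower (9.38% and 6.25%, against 2.5% and 1.58% of all). Itpr2, a receptor that releases calcium from stores on binding inositol trisphosphate (chromosome 6, 146056821 to 146450745, minus strand), was at 11.7 RPM in wild-type and 0.948 RPM in knockout cells, 12.4-fold lower (9.96 to 15.5), and it overlaps Gm17706. Its relatives Itpr1 and Itpr3, looked at after their values were seen, were higher without being called, at 26.6 and 47.5 RPM and at 28.4 and 46.4 RPM. Ryr3, a release channel of another family, was at 0.159 and 1.804 RPM. Ryr3 reached 1 RPM only in the knockout and Itpr2 only in the wild type, so each had to differ in its direction. The phospholipases that make inositol trisphosphate gave 2 calls: Plcd1 was at 4.88 RPM with ZFP57 and 18.4 RPM without it, 3.77-fold higher (3.35 to 4.25), and Plcb3 was 2.25-fold higher. Camk2d, a calcium-dependent kinase, was at 9.80 and 3.89 RPM, 2.52-fold lower (2.22 to 2.87). In G protein and cAMP signalling, 2 of 23 genes were called higher (8.7%, against 2.5% of all) and none lower. These were Rgs3 and Arrb1, which dampen receptor signals, both at 1.10 on the log2 scale.

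Growth factor receptors and ligands outside the FGF family were called in both directions. Of 24 such genes, 2 were called higher and 2 lower (8.33% each, against 2.5% and 1.58% of all). Pdgfc, a ligand of the PDGF receptors, was at 68.6 RPM in wild-type cells against 21.5 RPM in Zfp57-/- cells, 3.19-fold lower (3.03 to 3.36). Pdgfrb, a PDGF receptor, was at 1.43 and 5.73 RPM, 4.01-fold higher (3.23 to 5.01). Kit, the stem cell factor receptor, was at 32.1 and 72.0 RPM, and Alk, a receptor of the nervous system, at 4.25 and 1.60 RPM. Dusp9, a phosphatase that inactivates ERK and p38 kinases, was at 39.4 RPM in wild-type and 147 RPM in knockout cells, 3.73-fold higher (3.58 to 3.89). It was the 1 call among 24 dual-specificity phosphatase and sprouty genes (4.17%, against 2.5% of all).

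Among 34 guidance genes, 2 were called higher and 2 lower (5.88% each, against 2.5% and 1.58% of all). Slit3, a repellent ligand, was at 8.14 and 1.42 RPM, 5.72-fold lower (4.74 to 6.94). Epha2, an ephrin receptor, was at 166 and 76.7 RPM, 2.17-fold lower. Ntn1, the attractant netrin 1, was at 18.5 RPM with ZFP57 and 49.95 RPM without it, 2.70-fold higher (2.54 to 2.87), with 2 listed transcripts overlapping it. Plxnd1, a semaphorin receptor, was 3.25-fold higher, and the median of the list was 0.17.

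In the Wnt pathway, Porcn, the enzyme that puts the lipid on Wnt ligands, was at 3.80 RPM in wild-type cells against 15.7 RPM in Zfp57-/- cells, 4.12-fold higher (3.61 to 4.71). Cdx1, a homeobox gene known as a Wnt target, was at 0.578 and 3.99 RPM, 6.90-fold higher (4.98 to 9.81). Ctnnb1, beta-catenin, was at 572 and 573 RPM, and no other gene of the 19 ligands and receptors or the 21 other pathway genes was called. The retinoic acid list had 2 called members of 12, both higher (16.7%, against 2.5% of all). Rarg, a retinoic acid receptor, was at 38.6 and 89.3 RPM, 2.32-fold higher (2.22 to 2.42). Stra8, a germ cell gene known to respond to retinoic acid, was at 2.11 RPM in wild-type and 8.81 RPM in knockout cells. Notch and Hippo pathway genes had no called member, with medians of -0.06 and -0.15. The insulin and IGF pathway had 1, Igfbp7, at 3.12 and 0.680 RPM, 4.59-fold lower, and a median of -0.17, with a centred median of -0.07.

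Of 229 solute carriers, 14 were called higher and 4 lower (6.11% and 1.75%, against 2.5% and 1.58% of all), with a median of 0.05. The cystine importer Slc7a11, which feeds glutathione synthesis (chromosome 3, 50168858 to 50247535, minus strand), was at 21.5 RPM with ZFP57 and 6.59 RPM without it, 3.26-fold lower (2.97 to 3.58). A pair of other carriers of its family stood on the other side. Slc7a7, an exporter of basic amino acids, was at 18.8 and 57.1 RPM, 3.04-fold higher (2.86 to 3.23), but it overlaps Oxa1l. Slc7a9, a cystine and basic amino acid carrier of kidney, was at 0.217 and 2.59 RPM. Slc30a2, a zinc exporter, was at 5.20 RPM in wild-type cells against 18.5 RPM in Zfp57-/- cells, 3.55-fold higher (3.17 to 3.99). The thiamine carrier Slc19a2, on distal chromosome 1, and the metal carrier Slc11a1 were lower, at -1.07 and -1.53 on the log2 scale. The glucose carriers differed in direction, Slc2a1 being at 68.8 and 174 RPM and Slc2a3 at 875 and 616 RPM.

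5 further sets of letters were chosen after the values were seen and searched in the same way. TGATGNAA, the core of the amino acid response element that ATF4 and C/EBP factors bind, was in 2.74% of all tested genes, in 3.24% of those called higher and in 12 of 158 (7.59%) of those called lower. Fbln5, Sycp2, Slc7a11 and Hrk were among the last. The promoter of Slc7a11, the cystine importer 3.26-fold lower in the knockout, held 2 matches, 1 on each strand, and is shown from its start back over 250 bases (chr3:50443614-50443863, minus strand), with the matches in capitals.
Slc7a11: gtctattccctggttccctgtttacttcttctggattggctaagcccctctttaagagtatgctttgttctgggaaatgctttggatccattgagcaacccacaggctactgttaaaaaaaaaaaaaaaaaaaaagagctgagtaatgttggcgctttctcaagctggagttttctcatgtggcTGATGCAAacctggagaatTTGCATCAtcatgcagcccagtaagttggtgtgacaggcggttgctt

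TCACNCCAC, the sterol response element, was in 1.49% of all tested genes, in 1.62% of those called higher, in 1.27% of those called lower and in 0 of 15 sterol synthesis windows. ACGTG, the core bound by hypoxia-inducible factors, was in 29.4%, 29.6% and 29.1% of the same 3 sets. TGACGTCA, the cAMP response element, was in 3.61%, 3.64% and 3.16%. CCATNTT, the core bound by YY1, was in 17.4%, 10.9% and 14.6%. These shares describe letters in the windows and are no test of binding.

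Of 16 genes of iron and metal handling, 3 were called higher (18.8%, against 2.5% of all). Steap3, a ferrireductase of iron uptake, was at 4.26 RPM in wild-type and 16.6 RPM in knockout cells, 3.90-fold higher (3.44 to 4.43). Mt1, a metallothionein that binds zinc, was at 44.7 and 90.9 RPM, and Slc39a4, a zinc importer, at 20.7 and 43.2 RPM. Nqo1, a quinone reductase, was at 10.5 and 24.8 RPM, 2.37-fold higher (2.18 to 2.58). Of 19 glutathione S-transferases, 17 were higher and Gsta3 and Gstt3 were called higher (10.5%, against 2.5% of all). Their median was 0.42, with a centred median of 0.27 and an E14 median of 0.17. Aldh1l2, the mitochondrial enzyme that oxidises formyl-tetrahydrofolate, was at 49.1 RPM with ZFP57 and 12.2 RPM without it, 4.02-fold lower (3.77 to 4.30). Cyp11a1, which starts steroid hormone synthesis from cholesterol, was at 0.173 and 2.98 RPM, 17.2-fold higher (9.69 to 33.6).

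Hypoxia targets outside glycolysis had 4 called genes of 23, all higher (17.4%, against 2.5% of all), around a median of 0.17 and a centred median of 0.20. Bnip3, a mitophagy receptor, was at 4.33 RPM in wild-type cells against 11.9 RPM in Zfp57-/- cells, 2.76-fold higher (2.43 to 3.14). Egln3, an oxygen-sensing prolyl hydroxylase, was at 4.62 and 11.2 RPM, and Bhlhe40, a clock-linked repressor, at 6.62 and 17.5 RPM. Ankrd37 was called as well, but overlaps Lrp2bp and Ufsp2. Vegfa, the textbook hypoxia target, was on the lower side at 85.5 and 62.7 RPM, as was Ddit4 at 189.9 and 117 RPM. Slc16a3, the lactate exporter, was at 3.48 RPM in wild-type and 12.2 RPM in knockout cells, and Car4, a membrane carbonic anhydrase, at 0.564 and 4.68 RPM. Among 17 clock genes, 1 was called higher and 1 lower (5.88% each, against 2.5% and 1.58% of all). Bhlhe40 was the higher one and Per2 the lower one, at 11.5 and 3.66 RPM. The median of the clock genes was -0.29, with a centred median of -0.16.

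Stress, degradation and immune pathways had at most 1 called gene each. The share called lower was 4.76% of unfolded protein response and 3.57% of apoptosis genes, against 1.58% of all. The share called higher was 4.76% of autophagy, 7.14% of interferon response and 7.69% of antigen presentation genes, against 2.5% of all. No lysosome gene was called. In the unfolded protein response list, Atf6, a stress sensor of the endoplasmic reticulum on distal chromosome 1, was the 1 called gene, at 102 RPM with ZFP57 and 48.0 RPM without it, 2.13-fold lower (2.05 to 2.21), and the median of the list was -0.03. Lysosome genes were lower in 15 of 22 cases, with a median of -0.22, a centred median of -0.28 and an E14 median of -0.01. Lamp1, a main protein of the lysosomal membrane, was at 719 and 437 RPM and was not called. Autophagy genes other than Bnip3 had no call, and 14 of 21 were lower, with a median of -0.23 and a centred median of -0.20. Hrk, a BH3-only activator of cell death, was the 1 call among 28 apoptosis genes, at 67.5 RPM in wild-type cells against 25.3 RPM in Zfp57-/- cells, 2.66-fold lower (2.54 to 2.80). Interferon response genes had a median of -0.04, with Oas1a, a synthase that double-stranded RNA switches on, called higher at 2.59 and 6.33 RPM. Cd74, the invariant chain of class II antigen presentation, was at 0.275 and 2.23 RPM. It was the 1 call of the antigen presentation list and reached 1 RPM only in the knockout, so it had to be higher.

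Matrix, junction and channel genes gave further calls. The laminin chain Lamc1, on distal chromosome 1, was called lower at -1.35, while the collagens Col5a3 and Col6a5 were called higher at 1.53 and 1.29. The leukocyte integrins Itgb7 and Itgal were called higher, at 3.94 and 11.97 RPM and at 2.92 and 8.31 RPM. Adam19, a membrane protease, was at 17.1 RPM in wild-type and 52.9 RPM in knockout cells, 3.09-fold higher (2.90 to 3.29). Esrp1, a splicing factor of epithelial cells, was at 28.1 and 10.9 RPM, 2.57-fold lower (2.39 to 2.77), and Krt8, a simple-epithelium keratin, was 2.41-fold higher. Among channel genes, Cacna1e, a neuronal calcium channel on distal chromosome 1, was at 2.27 and 0.113 RPM, and Cacng7, an accessory subunit, at 11.9 and 40.1 RPM. Pkd2, a cation channel of primary cilia, was at 98.5 RPM with ZFP57 and 46.1 RPM without it, 2.14-fold lower (2.06 to 2.22).

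Enzymes and transporters of foreign compounds added a few calls. Of 30 ABC transporters, 19 were higher, and 1 was called higher and 2 lower (3.33% and 6.67%, against 2.5% and 1.58% of all). Abcg2, an exporter of drugs and porphyrins, was called higher, at 30.2 RPM in wild-type cells against 61.7 RPM in Zfp57-/- cells, 2.04-fold higher (1.94 to 2.15). Abca5 and Abca13, lipid transporters of the same superfamily, were called lower, at -1.32 and -1.10. Of 21 aldehyde dehydrogenases and aldo-keto reductases, 16 were higher. In this class 1 was called higher and 1 lower (4.76% each, against 2.5% and 1.58% of all). Akr1b8, an aldo-keto reductase, was called higher at 16.1 and 40.8 RPM, and Aldh1l2, described above, was called lower.

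Other pathways had no called gene. Genes of polyamine and arginine metabolism had a median of 0.22, glycogen and sugar nucleotide genes of 0.21, NF-kappaB and TNF pathway genes of 0.22, ribosome biogenesis and Myc genes of 0.08 and small RNA pathway genes of 0.04. Genes that build proteoglycans had a median of -0.12. Kinesins and dyneins, the motors of microtubules, were split into 27 higher and 28 lower. RNA polymerase and Mediator subunits were split into 29 higher and 28 lower. F-box genes, whose products choose proteins for degradation, were lower in 34 of 56 cases.

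Among 57 genes of Rab GTPases and their partners, Rab3il1 and Rab38 were called higher (3.51%, against 2.5% of all). Rab38, which serves the transport to melanosomes and related organelles, was at 0.751 and 2.69 RPM. It reached 1 RPM only in the knockout, so it had to be higher. Transcripts known only by predicted-gene or RIKEN names made up 432 and 790 of the tested genes. Of these, 14 and 11 were called higher (3.24% and 1.39%, against 2.5% of all) and 7 and 10 lower (1.62% and 1.27%, against 1.58%), and their medians were -0.02 and 0.01.

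The markers of other cell types were summed in each library. Neuronal markers summed to 207 RPM in wild-type and 316 RPM in knockout cells, most of it from Stmn2 at 108 and 161 RPM. Dcx, Snap25 and Syt1 were below 1 RPM in both. 9 of the 12 tested neuronal markers were higher by any amount. 2 were called higher (16.7%, against 2.5% of all), Nefm and Nefl, at 2.56 and 34.2 RPM and at 10.4 and 39.3 RPM. Nefm and Nefl overlap, so reads could be shared between these 2 calls. Ncam1 was the 1 called lower (8.33%, against 1.58% of all). Trophoblast markers summed to 31.8 and 63.7 RPM, most of it from Bmp4, with no read of Tpbpa or Prl3d1. Muscle markers summed to 39.2 and 54.3 RPM, mesoderm markers to 77.0 and 58.8 RPM, and definitive endoderm markers to 31.4 and 27.1 RPM. Endothelial and blood markers summed to 96.8 and 77.2 RPM, most of it from Pecam1, and fibroblast markers to 50.6 and 51.6 RPM. Fewer cells of a type and less RNA per cell cannot be told apart in such libraries.

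The same differences in E14 were looked up for the genes called in JB1, each difference formed within its own line. Of the 328 genes called higher in JB1, 258 reached 1 RPM in E14. 178 of these (69.0%) were higher there by any amount, against 53.4% of all 11890 genes tested in JB1 that reached 1 RPM in E14. 5 of them passed 2-fold upwards in E14 (1.94%, against 0.479% of all) and 2 passed it downwards (0.775%, against 0.235% of all). Of the 208 genes called lower in JB1, 192 reached 1 RPM in E14 and 91 (47.4%) were lower, against 46.6% of all. 1 of them, Zfp57, passed 2-fold downwards (0.521%, against 0.235% of all) and 4 passed it upwards (2.08%, against 0.479% of all).

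Besides Zfp57, the genes called in the same direction in both lines were Rpl39l, Id1, BC051077, Slc16a3 and Fam25c, all higher. Id1, an inhibitor of basic helix-loop-helix factors, was at 3.32 and 8.42 RPM in JB1 and at 2.12 and 7.65 RPM in E14. Slc16a3 was at 2.63 and 6.39 RPM in E14, and Rpl39l, whose reads may be shared with its parent gene Rpl39, at 5.96 and 26.1 RPM. Id1, BC051077 and Fam25c were singled out after their values were seen. Of the steepest JB1 genes, Fads2 had a log2 difference of 0.07 in E14, Itpr2 of -0.28, Hhip of -0.04 and Vim of 0.84. Itpr2 lies on chromosome 6, where 533 genes that reached 1 RPM in E14 had a median E14 difference of -0.28. Only 94 of those genes were higher in E14.

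**Figure D5:**
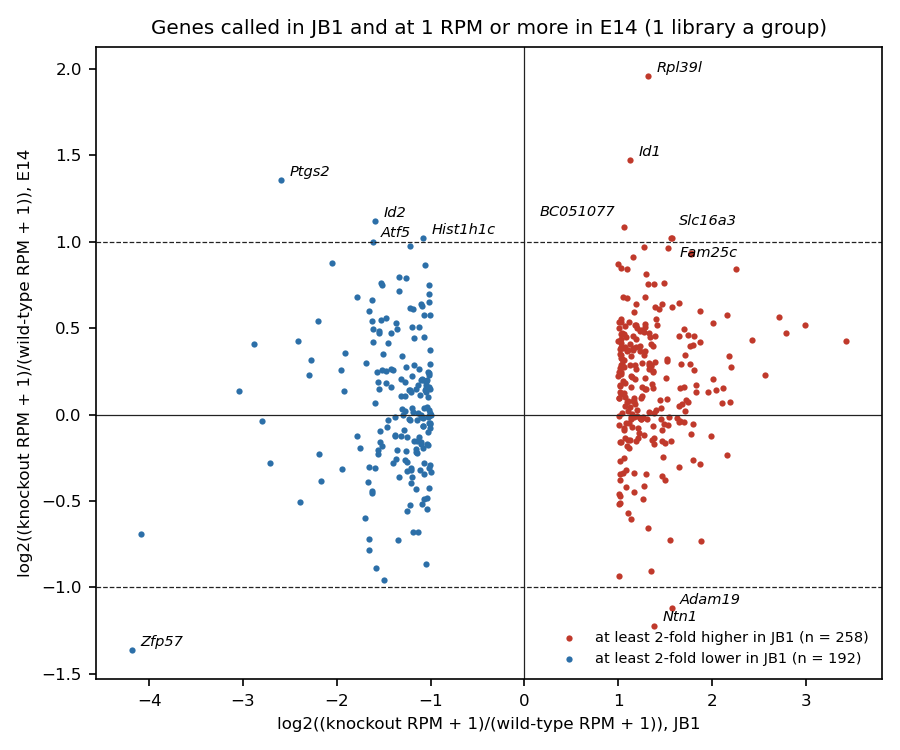
Log2 difference in JB1 (x axis) and in E14 (y axis) of the genes called in JB1 that reached 1 RPM in E14, 258 higher (red) and 192 lower (blue), 1 point a gene; dashed lines mark 2-fold in E14. 178 red and 91 blue points have the same sign in both lines.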

How the data were processed

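TRI reagent extraction and an Illumina stranded mRNA kit gave the libraries, per the labels' protocols. The tools in the submitters' processing notes are CASAVA 1.8.2, TopHat2 2.0.8b and cutadapt, with mm9 as the build. For the annotation, the counter and its strand setting the sources used here name nothing. The authors deposited log2 values of RPM, 1 table per line, and no replicates are named in the labels. Reads were recovered from the values: the lowest value of a library stood for 0.9 of a read, and 100% of the values above it gave whole reads within a relative tolerance of 0.0001. The library totals behind the scaling were 69204114 reads for JB1 wild type and 96996280 for the knockout, and 68.6% and 68.9% of them lay in listed genes. Taking 3 reads as the limit, a count of 0 allowed up to 0.0433 and 0.0309 RPM.

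RPM were 2 to the power of the deposited log2 value, with 0 for no read. Differences used a pseudocount of 1 RPM, and ratio intervals are exact conditional binomial (Clopper-Pearson, 95%). Python 3.11.15, numpy 2.4.6, pandas 2.3.3 and scipy 1.17.1 were used. The call rule was run on simulated libraries with counting error alone. They held no spread between cultures, so they cannot show how many calls such spread would give. The members, the 55 gene lists and the 55 classes by symbol were chosen with earlier results of these data known. Named genes were Zfp57, the 25 highest and 25 lowest differences, up to 6 called members per direction in each list or class with its member of most wild-type reads, and, where nothing was called, the 2 of most reads; other names are said to be chosen after their values were seen or are edge cases and marker genes. Where a symbol stood on several rows, the row of highest RPM was used. Transcript length and GC content came from the GENCODE transcripts of GRCm38 and were found for 98.8% of the tested genes. Coordinates are those of the deposited tables (mm9), except for promoter windows (RefSeq, GRCm38.p6). Results for a few genes are not reported here.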

Additional observations from a re-analysis of the deposited data

Results flagged for a closer look

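6 genes called in JB1 passed 2-fold in the opposite direction in E14. The difference between the lines was not tested, since each line had 1 library per genotype. Of the 192 genes called lower in JB1 that reached 1 RPM in E14, 4 were called higher there (2.08%, against 0.479% of all). Of the 258 called higher in JB1, 2 were called lower in E14 (0.775%, against 0.235% of all). Ptgs2, the inducible cyclooxygenase, had a log2 difference of -2.59 in JB1 and 1.36 in E14, where it was at 3.98 RPM in wild-type and 11.8 RPM in knockout cells. Atf5, a transcription factor of the stress response, had -1.61 in JB1 and 1.00 in E14. Id2, an inhibitor of basic helix-loop-helix factors, had -1.59 in JB1 and 1.12 in E14. Hist1h1c, a linker histone, had -1.08 in JB1 and 1.02 in E14. Ntn1, netrin 1, had 1.38 in JB1 and -1.22 in E14, and Adam19, a membrane protease, had 1.57 in JB1 and -1.12 in E14. Atf5, Id2 and Hist1h1c were named only for this difference, after their values were seen.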

How the results depend on the processing

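The number of calls depended on the pseudocount. With 5 RPM added in place of 1, 111 genes were called higher and 83 lower, and with 0.1 RPM 656 and 360, against 328 and 208. All 111 and 83 genes called with 5 RPM were also called with 1 RPM. Scaling by the median ratio gave 336 and 193 calls, scaling to the reads in listed genes 321 and 211, a minimum of 5 RPM 238 and 154, no minimum 328 and 208, and leaving out chromosome 1 beyond 140 Mb 325 and 188. Centring on genes of like transcript length and GC content, an alternative chosen after seeing the data, gave 278 and 214 calls, of which 260 and 181 were among the 328 and 208. Of the counts within lists and classes, 61 moved by over 1.5 times with 5 RPM added, 55 with 0.1 RPM, 68 with a minimum of 5 RPM, 48 with none, 25 with the centring, and 3, 2 and 5 with the 2 scalings and without distal chromosome 1. Named genes crossed the 2-fold line in 98 cases with 5 RPM added, 21 with the centring, 2 with each scaling and 1 with 0.1 RPM. Medians of lists moved by 0.1 or more in 27 cases with a minimum of 5 RPM, 26 with none, 20 with 5 RPM added, 9 with the centring, 8 with 0.1 RPM, 4 without distal chromosome 1 and 0 with the scalings. No named gene that was called changed sign with another pseudocount, either scaling or the centring. No library could be left out, and no spread between cultures could be had. No paired analysis was possible because each group had 1 library. Intervals from the reads were wide where 1 library had few reads, and hold no biological spread.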
